A study of Mus musculus with 20 samples.

Results

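Fat tissue surrounds lymph nodes, and 10 genes of the fat cell (adipocyte) were followed through whole lymph nodes: Adipoq, Lep, Retn, Plin1, Cidec, Lipe, Pnpla2, Fabp4, Pparg and Car3. They were chosen by symbol as well-known adipocyte genes, with earlier results of these data known. Of the 56258 genes in the deposited gene table, each of the 10 symbols had 1 row, and all 10 were among the 29411 genes that passed the filter on low counts.

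The study sequenced polyA RNA of whole lymph nodes from mice aged 9 weeks. Nodes were taken at 5 positions, with 4 libraries each: duodenal, jejunal, ileal and ceco-colonic nodes, which drain the gut, with the inguinal node, a node of the skin, as the non-gut reference. All 5 groups carried the same genotype, Rag1-/- (strain B6.129S7-Rag1tm1Mom/J), which lacks mature T and B cells, so no group has the lymphocytes of a normal node. The labels give neither sex nor whether same-numbered nodes came from one animal, nor how much surrounding tissue was taken with a node. Replicates are therefore separate libraries of a position, and p-values measure the spread between these libraries, which may be technical. Depth was 148.2 to 304.6 M (mega) estimated counts per library, and Rag1 itself stood at 1.98 to 3.43 CPM. All 20 libraries carry the allele and reads outside the deleted part remain, so this level does not check the labels. CPM here are estimated counts per M of the library, scaled by TMM (trimmed mean of M values). Nodes were recognisable by their stroma: the 7 lymph node stromal markers summed to between 1449.7 and 4845 CPM in every library.

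A white adipocyte stores fat in 1 large droplet coated by perilipin, takes up and re-esterifies fatty acids, and releases them by stepwise lipolysis when adrenergic signals call for energy. The nuclear receptor PPARgamma, made as a shorter and a longer protein from separate promoters, switches on this programme together with C/EBP factors, and the longer form is the one typical of fat. Fat around lymph nodes is known as perinodal adipose tissue. In bulk libraries of whole nodes, fewer adipocytes and less RNA per adipocyte cannot be told apart.

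Promoter windows from RefSeq (build GRCm38.p6) were found for 8 of the 10 genes, in 12 windows, and the 250 bases before each start site were searched for 5 motifs on both strands. Shown 5′ to 3′ on the gene's strand are Adipoq with its closest companions in these libraries, Cidec and Retn, then Lep, the most variable member, and the start of the longer Pparg transcript. Capitals mark a CCAAT box (CCAAT or its reverse complement ATTGG) in Adipoq and Pparg, and the C/EBP palindrome TTGCGCAA in Lep.
Adipoq, chr16:23146286-23146535, plus strand: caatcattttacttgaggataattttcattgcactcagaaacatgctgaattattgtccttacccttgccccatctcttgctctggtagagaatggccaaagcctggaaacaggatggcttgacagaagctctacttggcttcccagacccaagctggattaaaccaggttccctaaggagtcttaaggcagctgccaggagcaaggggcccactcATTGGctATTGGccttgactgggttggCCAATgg
Cidec, chr6:113435761-113436010, minus strand: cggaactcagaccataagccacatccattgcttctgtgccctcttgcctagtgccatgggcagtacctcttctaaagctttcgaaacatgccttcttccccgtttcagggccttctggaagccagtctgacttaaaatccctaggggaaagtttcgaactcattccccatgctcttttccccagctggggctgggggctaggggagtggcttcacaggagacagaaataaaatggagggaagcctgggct
Retn, chr8:3655520-3655769, plus strand: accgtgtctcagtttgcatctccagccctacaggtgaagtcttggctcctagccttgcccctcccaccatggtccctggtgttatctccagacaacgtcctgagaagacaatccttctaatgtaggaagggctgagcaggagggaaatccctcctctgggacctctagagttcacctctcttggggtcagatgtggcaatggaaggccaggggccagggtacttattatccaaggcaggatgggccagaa
Lep, chr6:29059971-29060220, plus strand: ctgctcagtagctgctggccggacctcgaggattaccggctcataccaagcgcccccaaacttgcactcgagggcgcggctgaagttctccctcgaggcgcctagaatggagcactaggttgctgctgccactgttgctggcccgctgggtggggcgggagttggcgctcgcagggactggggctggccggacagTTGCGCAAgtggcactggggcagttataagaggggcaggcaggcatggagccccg
Pparg, start of Pparg-201, chr6:115421816-115422065, plus strand: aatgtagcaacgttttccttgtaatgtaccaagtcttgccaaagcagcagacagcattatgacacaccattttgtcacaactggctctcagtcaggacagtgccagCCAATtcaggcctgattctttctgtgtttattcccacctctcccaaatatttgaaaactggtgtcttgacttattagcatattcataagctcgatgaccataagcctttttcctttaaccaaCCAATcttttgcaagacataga

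The Adipoq window held 3 CCAAT boxes, the nearest at -7 to -3 relative to the start site, and the Pparg-201 window held 2. A CCAAT box occurred in 33.9% of the 32851 windows of all genes searched in the same way. The C/EBP palindrome lay at -55 to -48 relative to the Lep start site and occurred in 0.164% of all windows. The direct repeat of AGGTCA with 1 base between the copies, the form PPARgamma binds with its partner RXR, was in no member window and in 0.0335% of all windows. Its half-site AGGTCA, found in 14.02% of all windows, was in both windows at the upstream Pparg starts, and TATAAA, found in 12.4%, in 1 of these. The windows printed for Cidec and Retn held none of the 5. These matches describe letters, and no match says only that the letters are not in this window.

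The adipokines, hormones secreted by fat cells, set the pattern. Adipoq, which encodes adiponectin, stood at 48.5, 163, 46.5 and 43.3 CPM in jejunal libraries 1 to 4 and at 98.9, 67.5, 54.9 and 93.7 CPM in ileal libraries 1 to 4. In duodenal libraries 1 to 4 it was 3.92, 19.6, 28.2 and 11.5 CPM, and in ceco-colonic libraries 28.4, 6.03, 19.5 and 12.9 CPM. In inguinal libraries it was 51.8, 5.81, 6.17 and 16.4 CPM. Every jejunal and ileal library was thus above every duodenal and ceco-colonic library, and the inguinal node spanned both ranges because of its library 1. By mean, the order was ileal (78.8 ± 21 CPM, SD, n = 4), jejunal (75.3 ± 58.4), inguinal (20.1 ± 21.7), ceco-colonic (16.7 ± 9.54) and duodenal (15.8 ± 10.4). Of the neighbours in this order, only jejunal and inguinal nodes differed by the test, and barely so, with a log2 fold change of 1.91 ± 0.67 (SE) and an adjusted p of 0.0496 (edgeR, quasi-likelihood, Benjamini-Hochberg adjusted).

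Lep, which encodes leptin, had the widest range of the 10 genes, 96.2-fold between libraries. It stood at 7.53, 35.9, 11.7 and 11.8 CPM in jejunal and at 16.6, 13.9, 13.2 and 24.1 CPM in ileal libraries 1 to 4. Values were 0.374, 3.75, 7.02 and 2.55 CPM in duodenal, 6.83, 1.03, 5.82 and 3.62 CPM in ceco-colonic and 18.1, 1.11, 1.90 and 5.62 CPM in inguinal libraries. The jejunal and ileal libraries were again above all duodenal and ceco-colonic ones, and duodenal library 1 was the lowest of all. For Lep, 49.3% of the variance of log2 CPM lay between positions, the smallest share among the 10 genes. Retn, which encodes resistin, ran from 2.36 CPM in inguinal library 2 to 71.6 CPM in jejunal library 2, with ileal libraries at 22.3 to 45.2 CPM and inguinal library 1 at 23.6 CPM.

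Genes of the lipid droplet followed the adipokines. Plin1, the perilipin that coats the droplet and gates lipolysis, stood at 58.5, 172, 58.7 and 62.6 CPM in jejunal and 91.3, 80.0, 69.4 and 113 CPM in ileal libraries 1 to 4. It was 16.2, 39.2, 55.0 and 29.1 CPM in duodenal, 25.8, 11.7, 30.2 and 20.7 CPM in ceco-colonic and 52.0, 15.3, 9.95 and 22.9 CPM in inguinal libraries. For Plin1 the jejunal and ileal libraries lay above all libraries of the other 3 positions, inguinal library 1 included. Cidec, which enlarges droplets by passing lipid from one to another, ranged 43.0-fold, between 4.33 CPM (duodenal library 1) and 186 CPM (jejunal library 2), with inguinal library 1 at 63.6 CPM and the other inguinal libraries at 4.48 to 16.8 CPM.

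The lipolytic enzymes and Pparg moved over a much smaller range. Lipe, hormone-sensitive lipase, was 113, 200.6, 112 and 124 CPM in jejunal and 153, 136, 118 and 159 CPM in ileal libraries 1 to 4. It was 73.5, 86.0, 96.6 and 89.3 CPM in duodenal, 99.4, 77.0, 99.5 and 90.7 CPM in ceco-colonic and 101, 64.8, 63.1 and 73.4 CPM in inguinal libraries. The jejunal and ileal libraries were again the highest without overlap, but the whole span was 3.18-fold. Pnpla2, which encodes adipose triglyceride lipase, the first enzyme of lipolysis, spanned 3.16-fold, between 86.0 CPM (duodenal library 1) and 272 CPM (jejunal library 2). Pparg spanned 3.33-fold, from 7.30 to 24.3 CPM. In duodenal library 1, where Adipoq was at its lowest, Lipe and Pnpla2 were still at 73.5 and 86.0 CPM.

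Fabp4 carries fatty acids inside adipocytes and is also made by capillary endothelium and macrophages, and Car3, a cytosolic carbonic anhydrase, is very abundant in fat and in some muscle. Fabp4 was 208.4, 568, 163 and 138 CPM in jejunal, 331, 241, 192 and 331 CPM in ileal, 58.2, 96.6, 110 and 58.5 CPM in duodenal and 106, 41.6, 59.1 and 52.9 CPM in ceco-colonic libraries 1 to 4. In inguinal libraries it was 334, 51.5, 52.3 and 89.3 CPM, so that library 1 reached the top of the ileal range, library 4 lay within the duodenal and ceco-colonic ranges, and libraries 2 and 3 lay below every duodenal library and within the ceco-colonic range. Car3 ranged 39.3-fold, from 22.6 CPM in ceco-colonic library 2 to 887 CPM in jejunal library 2. Jejunal library 2 held the highest value of all 20 libraries for each of the 10 genes, and duodenal library 1 the lowest for 4 of them.

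**Figure D1:**
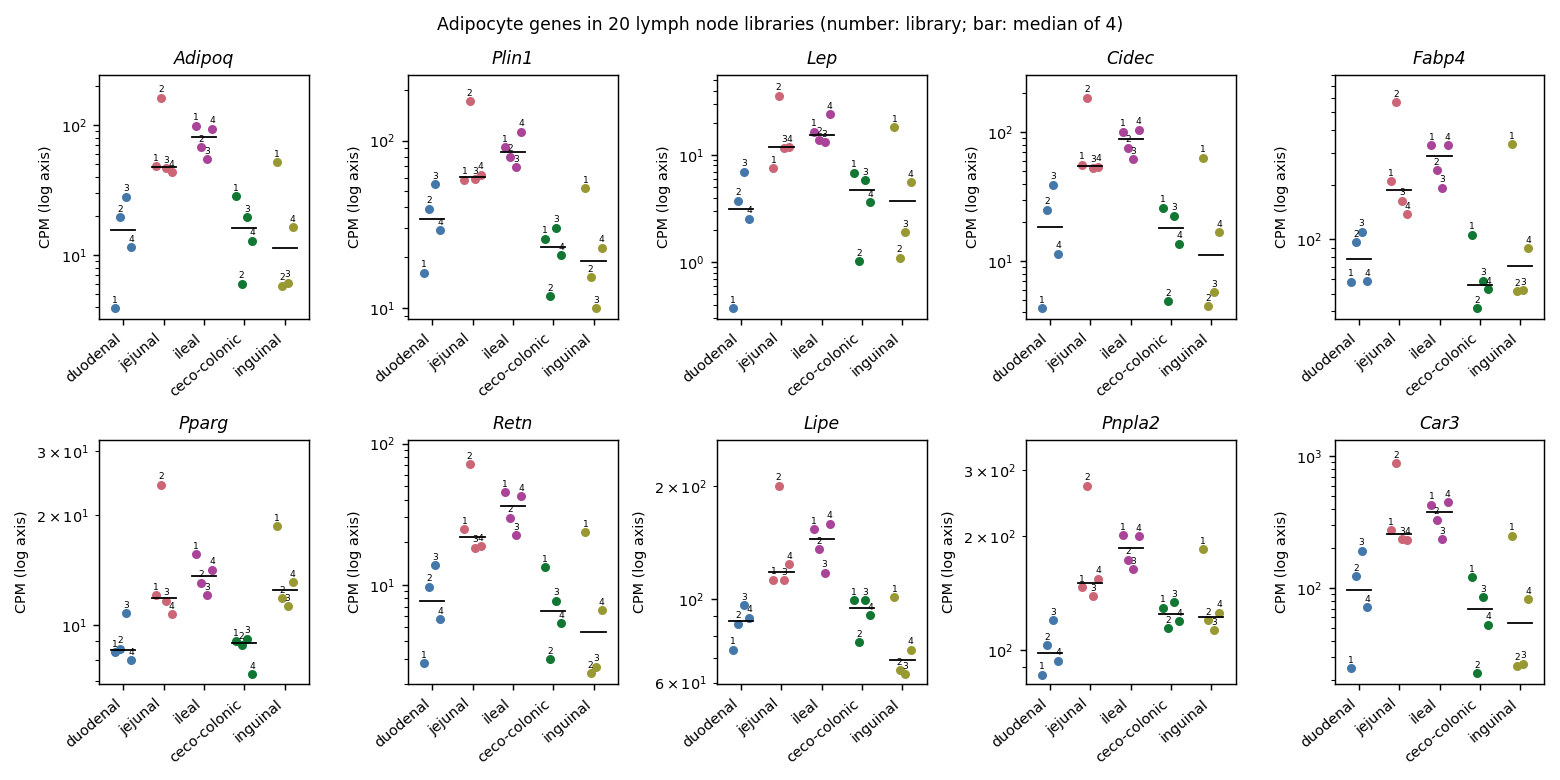
CPM of the 10 adipocyte genes (log axis, 1 panel per gene) in the 4 libraries of each of the 5 positions; each point is 1 library with its number, and each bar is the median of 4. Jejunal library 2 is the highest point in every panel (163 CPM for Adipoq), and inguinal library 1 stands above the other inguinal libraries (51.8 CPM for Adipoq).

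Levels per length, in transcripts per M (TPM), rank the genes against each other. The mean TPM over the 20 libraries was highest for Fabp4 (304.6) and Car3 (194), followed by Pnpla2 (111), Lipe (67.0), Adipoq (51.7), Cidec (43.4), Plin1 (38.7), Retn (36.8), Pparg (9.41) and Lep (4.31). Summed, the 10 genes took 0.0223% of all TPM in duodenal library 1 and 0.299% in jejunal library 2. The median share per position was 0.146% in ileal, 0.0956% in jejunal, 0.0436% in duodenal, 0.0420% in ceco-colonic and 0.0405% in inguinal nodes. The transcripts of these 10 genes were thus a minor part of every library, and other adipocyte genes are not in this sum.

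A joint test asked whether the 5 positions differed. In edgeR's quasi-likelihood fit, all 10 genes were called among the 5 positions at a Benjamini-Hochberg adjusted p under 0.05, where 35.7% of all genes tested were called. Since the 10 genes were chosen with earlier results of these data known, such counts beside all genes are descriptions only. Adjusted p ran from 0.000467 for Lipe to 0.0497 for Lep. Among the 4 gut positions alone 9 of the 10 were called, against 21.3% of all genes, with Pnpla2 the lowest at 0.00293 and Lep outside the threshold at 0.0519 by edgeR. The call of Lep among the 5 positions held in 11 of 30 settings fitted, this one included, and its adjusted p by edgeR or its alternatives reached 0.113. Over the 10 pairs of positions, 35 of the 100 tests of these genes were called, where 14.9% of all such gene tests were.

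The ceco-colonic node differed most clearly from the jejunal and ileal nodes. For ileal against ceco-colonic nodes, 9 of the 10 genes were higher, where 7.43% of all genes tested were called higher, and Lep was not called. The fold changes fell into a large and a small group: Cidec, Car3, Retn, Adipoq, Fabp4 and Plin1 had log2 fold changes of 1.998 to 2.35, and Pparg, Lipe and Pnpla2 of 0.57 to 0.68. Plin1 had the smallest adjusted p by edgeR, 0.00682, with a log2 fold change of 1.998 ± 0.47 (SE). Lep had a log2 fold change of 1.97 ± 0.79 and an adjusted p of 0.12 by the same edgeR test. The libraries of the 2 positions did not overlap for any of the 10 genes. Here and below, no share of all genes without overlap is given, and the 10 genes varied together. Such counts therefore describe these libraries only. The median log2 fold change of the 10 genes was 2.04, beside -0.01 for all genes tested.

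For jejunal against ceco-colonic nodes, 8 of the 10 were higher, where 7.14% of all genes were called higher. Car3 had the largest log2 fold change, 2.54 ± 0.72 (SE), and Plin1 the smallest adjusted p by edgeR, 0.00687. Lep and Pnpla2 were not called, with adjusted p of 0.127 and 0.0694 by edgeR. All 10 genes again separated the libraries without overlap. The number of calls rested on single libraries. Here and below, counts with libraries left out stand without the share of all genes called in the same fit. From those counts alone, a change in these genes and a change over all genes cannot be told apart. Left out one at a time, ceco-colonic libraries 2, 3 and 4 left 1, 3 and 2 calls for ileal nodes and 2, 5 and 1 for jejunal nodes, ceco-colonic library 1 left 6 for ileal nodes, ileal libraries 1, 2 and 4 left 2, 5 and 2 for ileal nodes, and jejunal library 2 left 1 for jejunal nodes.

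Duodenal libraries overlapped the ceco-colonic ones for each of the 10 genes, but the ranges were not the same. Plin1 reached 55.0 CPM in duodenal and 30.2 CPM in ceco-colonic libraries. Pnpla2 ran from 86.0 to 120 CPM in duodenal and from 114 to 134 CPM in ceco-colonic libraries. For duodenal against ileal nodes, 5 of the 10 were lower (Pnpla2, Lipe, Adipoq, Fabp4 and Retn), where 8.03% of all genes tested were called lower, and all 10 separated the libraries without overlap. Adipoq fell by 2.31 ± 0.68 (SE) on the log2 scale with an adjusted p of 0.0288, and Pnpla2 fell by 0.88 ± 0.18 with an adjusted p of 0.00395, both by edgeR's quasi-likelihood test. For duodenal against jejunal nodes, Lipe and Pnpla2 were lower, where 1.54% of all genes were called lower, and 9 genes separated the libraries, Pparg being the exception. Between duodenal and ceco-colonic nodes none of the 10 was called, where 16.4% of all genes were, and none had an unadjusted p under 0.05 by edgeR. Log2 fold changes there ran from -0.33 ± 0.77 (SE) for Lep to 0.66 ± 0.46 for Plin1, and for these genes the standard errors were too wide to show differences of that size. Lipe, Pnpla2 and Pparg had smaller errors, with log2 fold changes of -0.09 ± 0.17, -0.30 ± 0.18 and 0.06 ± 0.21.

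Duodenal libraries 1 and 2 held pancreatic acinar transcripts: the 8 acinar markers summed to a median of 8461 CPM and a highest value of 29866 CPM in duodenal nodes, and to 82.0 CPM or less at every other position. Their part in the duodenal values was not tested by itself. Without both libraries, which leaves 2 duodenal ones, the number of genes lower in duodenal than ileal nodes went from 5 to 0 and in duodenal than jejunal nodes from 2 to 0. Against ileal nodes the log2 fold change was then -1.99 for Adipoq and -0.79 for Pnpla2, close to the values with all libraries, with adjusted p of 0.199 and 0.0634 by edgeR. Left out one at a time, duodenal libraries 1, 2 and 4 and ileal libraries 1 and 4 each took the 5 calls against ileal nodes to 2, duodenal library 3 and inguinal library 1 to 9 and jejunal library 2 to 8. The 2 calls against jejunal nodes went to 0 without duodenal library 2 or jejunal library 2, to 5 without inguinal library 1, and to 1 without duodenal library 1 or 4, jejunal library 4, ileal library 1 or 2, ceco-colonic library 1 or 4, or inguinal library 2 or 4.

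No difference was detected between jejunal and ileal nodes. None of the 10 genes was called between them, where only 0.068% of all genes were, and none had an unadjusted p under 0.05 by edgeR. Adipoq differed by -0.07 ± 0.65 (SE) on the log2 scale and Fabp4 by -0.02 ± 0.52, so the error leaves room for differences of over 1 on that scale. Lipe, the gene with the smallest standard error, differed by -0.04 ± 0.17. The spread was unequal: the highest Adipoq value was 3.76-fold the lowest in jejunal and 1.80-fold in ileal libraries.

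**Figure D2:**
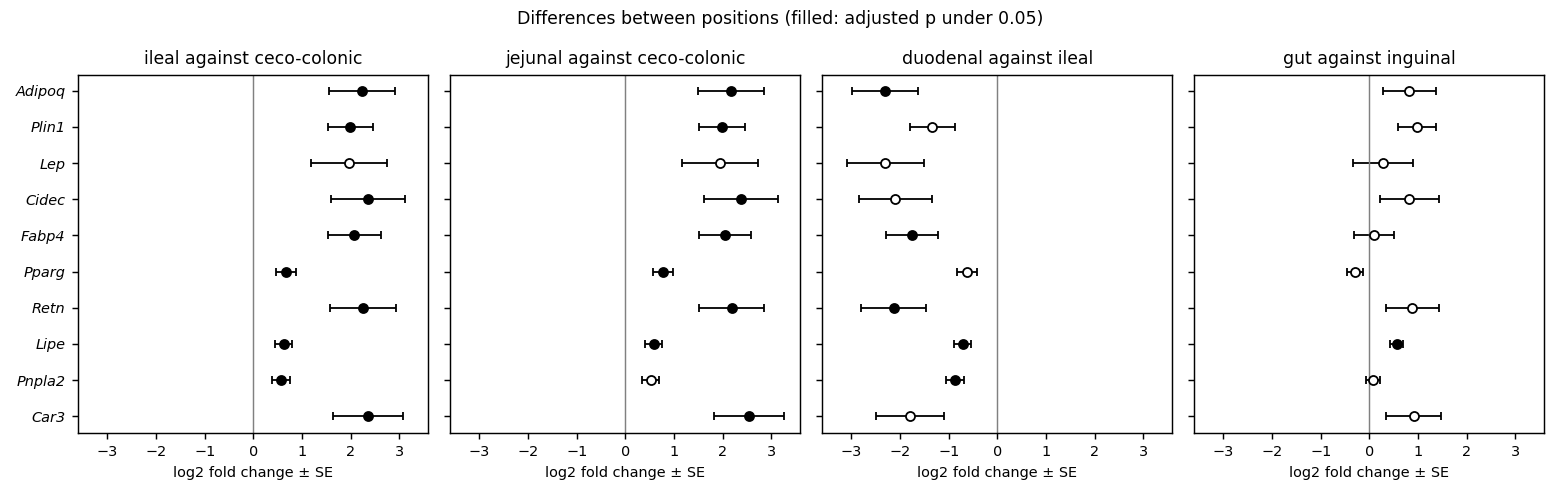
Log2 fold changes with standard errors (horizontal axis) of the 10 genes in 4 comparisons, from edgeR's fit of all 20 libraries; filled points passed an adjusted p of 0.05. The 9 filled points of ileal against ceco-colonic nodes lie between 0.57 and 2.35, and Lipe is the only filled point of gut against inguinal nodes, at 0.56.

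Against the inguinal reference, Lipe alone was called for the mean of the 4 gut positions. It was higher in gut nodes by 0.56 ± 0.14 (SE) on the log2 scale with an adjusted p of 0.00520 by edgeR's quasi-likelihood test, where 13.4% of all genes tested were called higher. That call held in all 30 settings fitted, with adjusted p up to 0.0364. Plin1 had a log2 fold change of 0.98 ± 0.39 and an adjusted p of 0.0682 by the same edgeR test, and Pparg one of -0.30 ± 0.16 and 0.197. The 8 genes other than Lipe and Pparg had log2 fold changes of 0.07 to 0.98. None of the 10 genes separated the gut libraries from the inguinal ones without overlap.

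Inguinal library 1 set the spread of this comparison. Its Adipoq level was 51.8 CPM, beside 5.81 to 16.4 CPM in the other 3, and without it 7 of the 10 genes were called. The share of all genes called in that fit is not given here. Without inguinal library 1 the log2 fold change of Adipoq was 1.91 with an adjusted p of 0.0199 by edgeR, where it was 0.82 ± 0.55 and 0.311 with that library. Without jejunal library 2 or duodenal library 1, 2 genes were called.

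Each gut position set against the inguinal node shares the same 4 inguinal libraries, so these comparisons are not independent. For jejunal nodes Adipoq, Retn, Plin1, Lipe and Car3 were higher, 5 of 10 where 11.4% of all genes were, and for ileal nodes Adipoq, Retn, Plin1 and Lipe, 4 of 10 where 12.5% were. Lipe had the smallest adjusted p in both by edgeR, 0.000938 for jejunal and 0.000573 for ileal nodes, with log2 fold changes of 0.86 ± 0.17 (SE) and 0.90 ± 0.17. Plin1 and Lipe separated jejunal from inguinal libraries without overlap, and Adipoq, Plin1 and Lipe did so for ileal nodes. For duodenal and for ceco-colonic nodes Pparg alone was called, and it was lower, by 0.62 ± 0.21 and 0.68 ± 0.21 on the log2 scale, with adjusted p of 0.0348 and 0.0242 by edgeR, where 12.1% and 10.3% of all genes were called lower. Without inguinal library 1 the calls were 9 for jejunal, 9 for ileal, 0 for duodenal and 0 for ceco-colonic nodes. The 5 jejunal calls went to 1 without jejunal library 2, to 2 without ileal library 2 or inguinal library 2, 3 or 4, and to 3 without duodenal library 2 or 4, jejunal library 1, ileal library 1, 3 or 4, or ceco-colonic library 3 or 4. The 4 ileal calls went to 2 without ileal library 1, 2 or 4 or inguinal library 2, 3 or 4. The duodenal call of Pparg was lost without duodenal library 1, 2 or 4 or inguinal library 4 and joined by 1 more without jejunal library 2, and its ceco-colonic call was lost without ceco-colonic library 4.

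The 10 genes varied together from library to library. Over the 20 libraries, Pearson's r of log2 CPM with Adipoq was 0.99 for Cidec, Retn and Car3, 0.97 for Lep, 0.96 for Plin1, 0.94 for Fabp4, 0.93 for Lipe, 0.89 for Pnpla2 and 0.70 for Pparg. Spearman's rho gave the same 3 leaders, at 0.994, 0.982 and 0.982, and 0.728 for Pparg. These are descriptions without a p, since libraries of a position share their site and all genes of a library share its depth and scaling. With each position's mean removed, r was 0.998 for Car3, 0.992 for Cidec, 0.989 for Retn, 0.967 for Lep and 0.728 for Pparg. Without the 2 libraries farthest from the Adipoq median, duodenal library 1 and jejunal library 2, r was 0.993 for Cidec and 0.584 for Pparg. The log2 library total and Adipoq had an r of -0.035.

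Ratios between genes show the same closeness. The CPM ratio of Retn to Adipoq stayed between 0.394 and 0.710 in all 20 libraries, and that of Car3 to Adipoq between 3.74 and 6.84, while Adipoq itself varied 41.5-fold. The median Car3 ratio differed by position, from 6.29 in duodenal to 4.18 in ceco-colonic nodes, and the duodenal range of 6.21 to 6.84 did not overlap that of the other 4 positions. By contrast Lipe to Adipoq ran from 1.23 to 18.7 and Pparg to Adipoq from 0.149 to 2.15. Inguinal libraries had the highest median Fabp4 ratio, 7.47, where the medians of the gut positions were 3.50 to 5.0. Its inguinal range of 5.43 to 8.87 overlapped the duodenal (3.90 to 14.8) and ceco-colonic (3.03 to 6.90) ranges. The highest single Fabp4 ratio was duodenal.

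**Figure D3:**
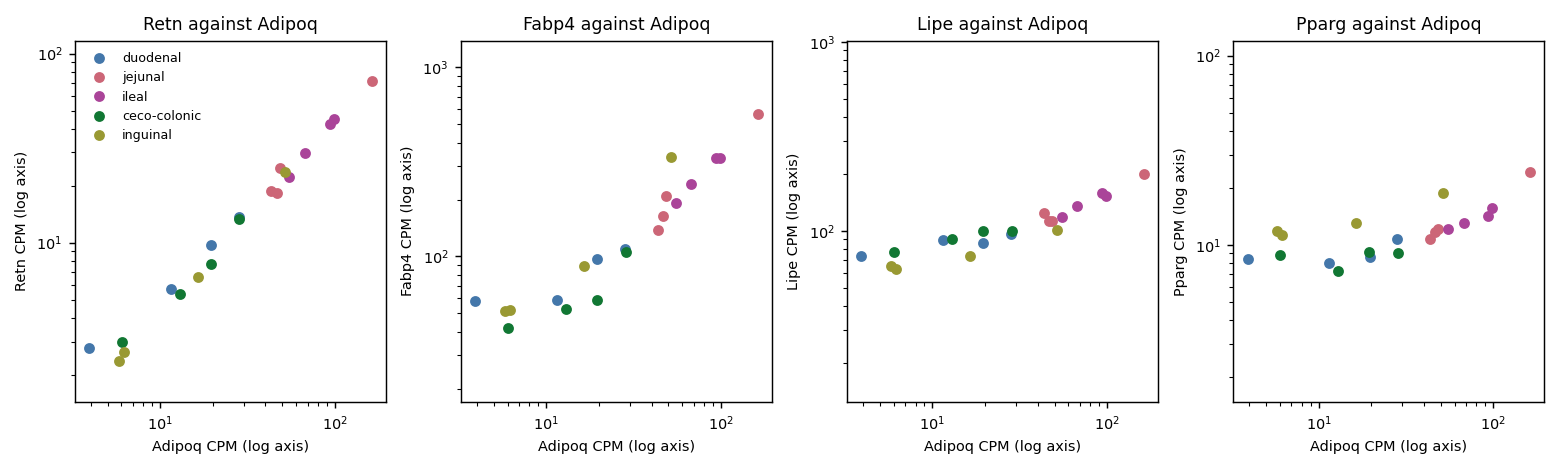
CPM of Retn, Fabp4, Lipe and Pparg (vertical axes, each log scaled over the same span) against Adipoq CPM (horizontal log axis), with 1 point per library coloured by position. Retn rises along a line with Adipoq (r 0.99), whereas Lipe and Pparg level off at low Adipoq, and the 4 inguinal points of Pparg lie above the rest at similar Adipoq.

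Genes outside the 10 members that varied most like Adipoq were found by r among the 11642 genes with a mean of at least 5 CPM. The 10 nearest were Cfd, Cdo1, Rbp4, Pcx, Klhdc7a, Scd1, Plin4, Gpd1, Glb1l2 and Lgals12, with r from 0.99 to 0.96 over the 20 libraries. Cfd, which encodes the serine protease adipsin, ran from 24.2 CPM in ceco-colonic library 2 to 742 CPM in jejunal library 2. Scd1, the desaturase that makes oleate, ran from 23.8 to 1474 CPM. Of these, Cfd, Plin4, Pcx, Scd1 and Gpd1 were also on the gene lists chosen beforehand. Jejunal library 2 was the highest library for all 10. The ranking by r with Adipoq favours this, since Adipoq was itself highest in that library.

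Pparg stood apart, and its transcripts differed. The analysis of transcripts was chosen after the gene values were seen. Pparg-201 encodes the longer protein, PPARgamma2 (505 codons), and begins at the promoter printed above, while Pparg-202 and Pparg-204 encode PPARgamma1 (475 codons each) and begin upstream. In jejunal libraries 1 to 4 Pparg-201 stood at 4.35, 13.05, 4.04 and 2.78 TPM, in ileal at 6.49, 5.57, 4.14 and 5.77 TPM and in duodenal at 0.641, 1.69, 3.71 and 1.01 TPM. In ceco-colonic libraries it was 2.55, 0.392, 1.64 and 1.20 TPM, and in inguinal libraries 4.14, 0.427, 0.509 and 1.13 TPM. Pparg-201 thus had the pattern of Adipoq, including the high inguinal library 1, with an r of 0.97 in log2 TPM and a 33.3-fold range.

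The 2 PPARgamma1 transcripts together behaved differently. Their summed level was 10.6, 9.34, 8.61 and 9.60 TPM in inguinal libraries 1 to 4 and between 4.09 and 6.26 TPM in every gut library. No gut library reached the inguinal range, and r with Adipoq was -0.16. For gut against inguinal nodes, Pparg-202 fell by 0.49 ± 0.10 (SE) on the log2 scale with an adjusted p of 0.00369, and Pparg-204 fell by 1.34 ± 0.28 with 0.00354, by edgeR's quasi-likelihood test over 89907 transcripts, of which 11.1% were called. Both calls held in the 7 settings fitted, with adjusted p up to 0.0356. Pparg-201 had a log2 fold change of 1.07 ± 0.58 and an adjusted p of 0.308 by the same edgeR test. Among the 5 positions, where 13.8% of transcripts were called, its adjusted p was 0.0600, and those of Pparg-202 and Pparg-204 were 0.0253 and 0.0304 by edgeR, each passing in 4 of 7 settings.

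The share of Pparg-201 in the 3 transcripts was 43.5% to 55.6% in ileal, 40.4% to 67.8% in jejunal, 12.7% to 44.5% in duodenal, from 5.89% to 38.3% in ceco-colonic and from 4.37% to 28.0% in inguinal libraries. Every ileal library was above every ceco-colonic and inguinal library. Reads shared between these transcripts were divided by estimation, and the uncertainty of that step is not part of the test. Of the lipase transcripts, Lipe-202 (759 codons, the form of fat cells) ran from 18.3 to 78.0 TPM with an r of 0.95 with Adipoq, and Lipe-201 (802 codons) from 6.08 to 12.7 TPM with an r of 0.67. Lipe-201 was higher in gut than inguinal nodes by 0.43 ± 0.09 (SE) on the log2 scale with an adjusted p of 0.00197 by edgeR, and Lipe-202 by 0.62 ± 0.18 with 0.0349, the first in 7 and the second in 4 of 7 settings.

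**Figure D4:**
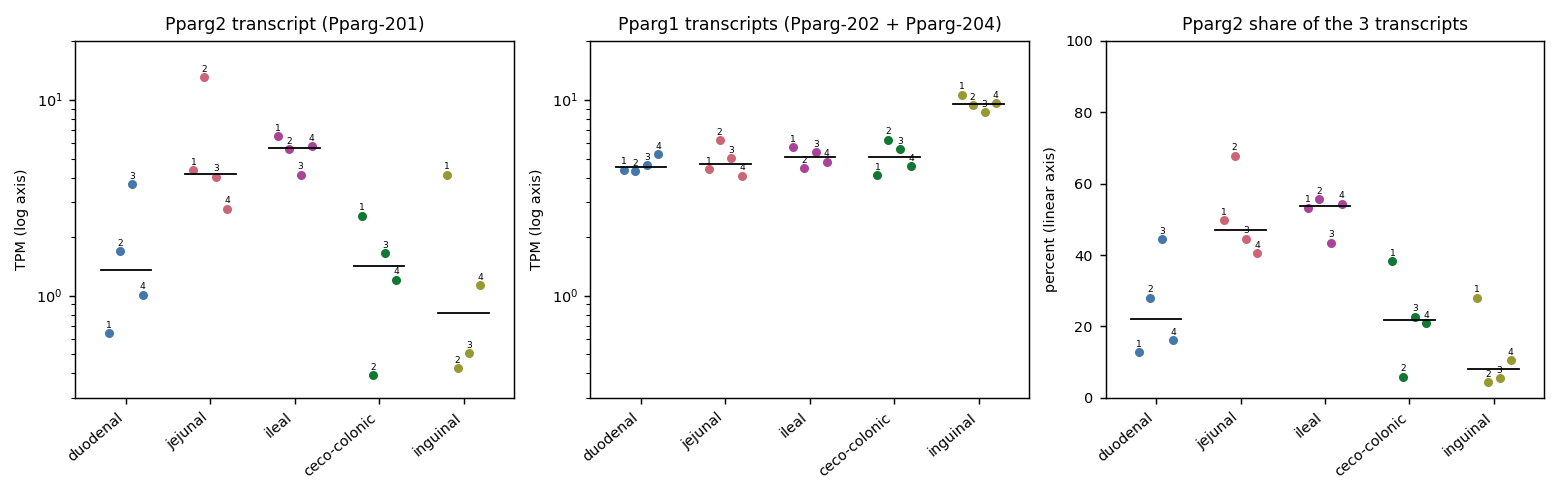
TPM (log axes) of the longer Pparg transcript and of the 2 shorter-protein transcripts summed, and the percent of the longer one in the 3 (linear axis), in the 4 libraries of each position; points are libraries with their number and bars medians of 4. The longer transcript spans 0.392 to 13.05 TPM, while the 4 inguinal libraries stand above all gut libraries for the shorter form (8.61 to 10.6 TPM).

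Other genes of the white adipocyte moved with these 10. Of 15 further white adipocyte genes all 15 were called among the 5 positions, and 14 of 16 lipid storage and lipogenesis genes and 12 of 12 genes of lipolysis and its control, where 35.7% of all genes tested were. The lists, too, were chosen with earlier results of these data known, so these counts are descriptions only. The median r of the 3 lists with Adipoq was 0.92, 0.94 and 0.79. Jejunal library 2 was the highest library for 13 of the 15, 12 of the 16 and 7 of the 12. For gut against inguinal nodes, 3 of the 15 white adipocyte genes were higher and 0 lower, and 1 of the 16 lipogenesis genes was higher and 0 lower. Of the 12 lipolysis genes 5 were higher and 2 lower. Over all genes 13.4% were called higher and 12.9% lower, so the counts of the first and second list lie near or below that background.

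Several of these had levels of their own. Cebpa, which encodes the C/EBP partner of PPARgamma, was 158 ± 18 CPM (SD, n = 4) in jejunal, 160 ± 16 in ileal, 114 ± 9.2 in duodenal, 124 ± 3.2 in ceco-colonic and 128 ± 7.5 CPM in inguinal nodes. Its r with Adipoq was 0.76, but 0.31 with each position's mean removed. Adrb3, the beta-3 adrenergic receptor through which noradrenaline starts lipolysis, was higher in gut than inguinal nodes by 1.85 ± 0.57 (SE) on the log2 scale with an adjusted p of 0.0197 by edgeR. It was 3.89, 1.64, 0.710 and 3.09 CPM in inguinal libraries 1 to 4, all below the ileal mean of 17.6 CPM, with library 1 the highest of the 4. The r of Adrb3 with Adipoq was 0.95 over the 20 libraries, and 0.90 with each position's mean removed. Mest, a gene tied to fat expansion, was 3.68 ± 0.31 CPM (SD, n = 4) in inguinal nodes and 7.36 to 9.34 CPM by mean in gut nodes, a log2 fold change of 1.18 ± 0.14 with an adjusted p of 1.6e-06 by edgeR. Plin2, a droplet coat protein of many cell types, was 132 ± 4.8 CPM in inguinal and 240 ± 17 CPM in ileal nodes. Its r with Adipoq was 0.73, but 0.18 with each position's mean removed. Hilpda, an inhibitor of Pnpla2's enzyme, was 5.41 ± 0.24 CPM in ileal and 3.29 ± 0.13 CPM in ceco-colonic nodes. Fabp5, a close relative of Fabp4, was highest in ceco-colonic nodes at 212 ± 17 CPM, with an r of -0.01 with Adipoq. Dgat1, which makes triglyceride, was higher in gut than inguinal nodes by 0.42 ± 0.10 on the log2 scale with an adjusted p of 0.00260 by edgeR.

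Thermogenic genes, which mark brown and beige adipocytes, did not share one pattern. Of 10 on the list, 9 were tested and 3 (Ucp1, Dio2 and Cox8b) were called among the 5 positions, a share near the 35.7% of all genes, and 1 was lower in gut than inguinal nodes, where 12.9% of all genes were. Prdm16, a transcription factor of brown fat, stood at 5.90 to 10.4 CPM and Cpt1b, which carries fatty acids into mitochondria, at 2.86 to 6.75 CPM, and neither was called. Prdm16 was lowest in inguinal library 1. The other 8 genes reached at most 3.65 CPM in any library. Dio2, the deiodinase that activates thyroid hormone, had its highest mean in duodenal nodes, 0.741 CPM, and its highest value in duodenal library 2, 1.44 CPM. Ucp1, the mitochondrial uncoupling protein, was 2.50, 0.140, 0.107 and 0.2003 CPM in inguinal libraries 1 to 4 and 0.0396 to 0.162 CPM in the 16 gut libraries. For Ucp1, inguinal library 1 stood far above the rest. Ucp1 was called for gut against inguinal nodes, at a log2 fold change of -3.02 ± 0.51 (SE) and an adjusted p of 0.000114 by edgeR. Inguinal libraries 2 and 3 lay within the gut range and library 4 just above it. Whether Ucp1 is called without inguinal library 1 is not given here. Cidea, a droplet protein typical of brown fat, was 5.21, 0.107, 0.0562 and 0.498 CPM in inguinal libraries and at most 1.12 CPM in gut libraries. Cox8b was 2.89 CPM in inguinal library 1 and 2.06 CPM in jejunal library 2, and at most 1.20 CPM elsewhere. Adrb3, Cidea, Prdm16, Cpt1b, and below Wt1, Gata4, Bnc1, Csf1r, Adgre1, Mertk, Mrc1, Cd68, Itgax, Acta1, Ckm and Prox1 were singled out after their values were seen.

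**Figure D5:**
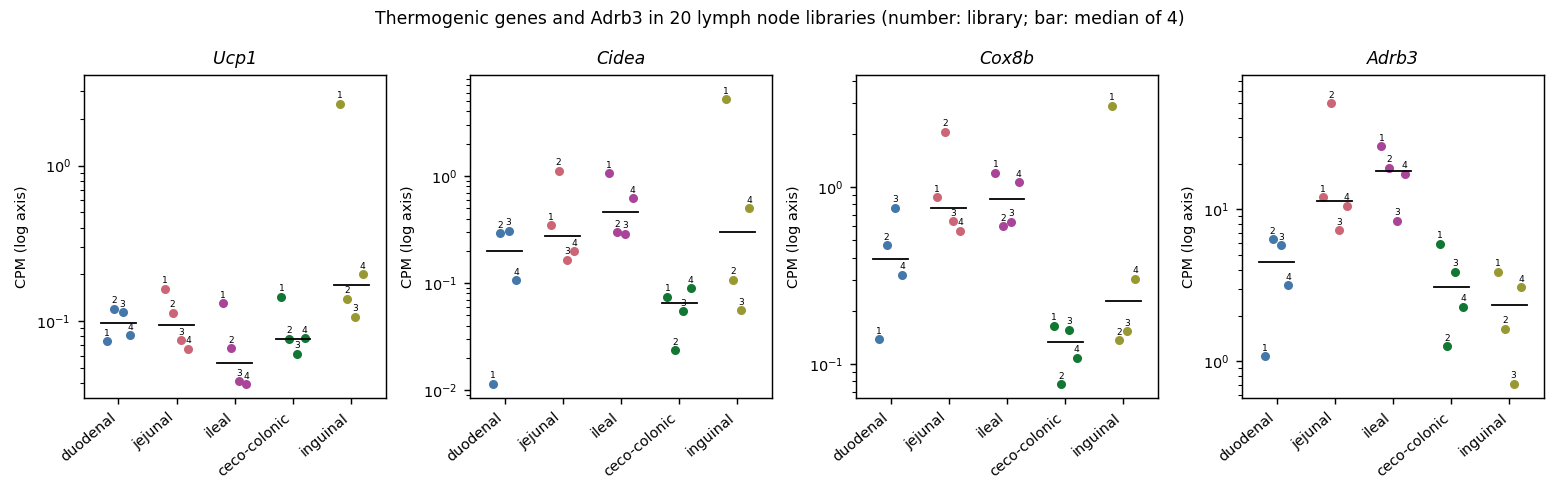
CPM (log axes) of Ucp1, Cidea, Cox8b and Adrb3 in the 4 libraries of each position; points are libraries with their number and bars medians of 4. Inguinal library 1 is the highest point for Ucp1 (2.50 CPM), Cidea (5.21 CPM) and Cox8b (2.89 CPM), whereas jejunal library 2 is the highest for Adrb3 (50.1 CPM).

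Of 10 genes known to tell fat depots and body regions apart, 9 were called among the 5 positions, where 35.7% of all genes were, and their median r with Adipoq was 0.12. Tbx15, a T-box factor of subcutaneous fat, was 10.9 to 15.1 CPM in inguinal and at most 0.289 CPM in gut libraries, and its r with Adipoq was -0.21. En1 was 1.43 ± 0.27 CPM (SD, n = 4) in inguinal nodes and 0.0388 CPM or less by mean at each gut position. Hoxc10 was 6.78 ± 0.37 CPM in inguinal and 6.73 ± 0.47 CPM in ceco-colonic nodes and 1.17 CPM or less by mean elsewhere. Others of the list varied partly with Adipoq: Wt1, a factor of visceral fat and its lining, had an r of 0.61 (0.66 with each position's mean removed), Gata4 of 0.67 (0.25) and Bnc1 of 0.56 (0.21). Msln was the gene not called, with an adjusted p of 0.531 by edgeR. In inguinal library 1 Tbx15 was 12.1 CPM, beside 10.9, 15.1 and 14.5 CPM in the other 3. Of 14 adipose progenitor genes 9 were called among the 5 positions, beside the same 35.7%, and their median r with Adipoq was 0.17. Dpp4 was 164 to 174 CPM by mean at the duodenal, ileal and ceco-colonic positions, 163 ± 9.9 in jejunal and 70.2 ± 6.9 CPM in inguinal nodes.

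Cell types that share a gene with the adipocyte were checked by marker lists. For the 9 capillary endothelial markers the summed level was 984 to 1153 CPM (ileal), 1026 to 1174 (jejunal), 935 to 1173 (duodenal), 887 to 958 (ceco-colonic) and 1114 to 1273 (inguinal). The median sum was highest in inguinal nodes, but its parts were divided. By mean, Kdr was highest in ileal nodes (308 CPM) and Cdh5 in jejunal nodes (189 CPM). Pecam1 and Aqp1 were highest in inguinal nodes (446 and 309 CPM). Over the 9 markers r with Adipoq ran from -0.61 for Aqp1 to 0.67 for Kdr. Fabp4 ranged 13.7-fold. The part of the capillary endothelium in the values of Fabp4 was not tested. For the 9 macrophage markers it was 2915 to 3675 CPM (ileal), 3086 to 3511 (jejunal), 1938 to 2619 (duodenal), 2031 to 2286 (ceco-colonic) and 2483 to 2777 CPM (inguinal). This sum, with Marco and Csf1r its largest parts, was thus highest in the same 2 positions as the adipocyte genes. The single markers were divided. By mean, Adgre1, Csf1r, Mertk and Marco were highest in jejunal or ileal nodes. Timd4, Mrc1 and Cd68 were highest in inguinal nodes (331, 224 and 191 CPM), and Trem2 and Itgax in ceco-colonic nodes (18.8 and 306 CPM). Over all libraries r with Adipoq ran from -0.42 for Timd4 to 0.77 for Csf1r among the 9 macrophage markers. With each position's mean removed it ran from -0.40 for Itgax to 0.46 for Mertk, with Csf1r at 0.18. The part of macrophages in the values of Fabp4, Pparg, Lipe and Pnpla2 was not tested. For the 10 skeletal muscle markers, some of whose cells also make Car3, the sum was 7.15 to 12.3 CPM in every library. Acta1 of this list had an r of 0.87 with Adipoq (0.81 with each position's mean removed) at 0.932 CPM or less, highest in jejunal library 2, and Ckm an r of 0.02 at 1.40 CPM or less. Of the 10, 8 were tested and 5 called among the 5 positions. The 7 lymph node stromal markers had a median r of 0.11 with Adipoq. Its extremes were the lymphatic gene Prox1 at 0.83 and Cxcl13 at -0.70, and Lyve1 stood at 0.75. Cxcl13 was lowest in jejunal library 2, at 4.68 CPM. The 6 mesothelial markers, of the lining on gut fat, summed to at most 9.19 CPM in jejunal and 6.87 CPM at the other positions. Whether these markers take part in the adipocyte gene differences was not tested.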

How the data were processed

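Bulk polyA RNA of whole lymph nodes was measured in 20 libraries, 4 per position. Per the labels' protocols, RNA was extracted with the PicoPure kit and libraries were made with a NEBNext poly(A) kit. The tools named per the submitters' processing notes are kallisto, edgeR and limma, and the builds are GRCm39 and mm10; their versions and roles were not given in the sources used here. Estimated counts of 56258 genes were deposited in 1 table, with no symbol for 135. For 149419 transcripts the authors deposited estimated counts and TPM, per the file headers. Over 13820 genes with a mean of at least 500, 99.6% of the table's values came within 0.001 on the log2 scale from length-scaled TPM summed over transcripts, and 3.39% from plain sums, so the values tested are scaled estimates, not read counts.

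Gene values were rounded and fitted with edgeR 4.0.16 (R 4.3.3): filterByExpr by position (minimum count 10, minimum total 15), TMM, 1 mean per position over all 20 libraries and the quasi-likelihood test. The threshold for a call was an adjusted p of 0.05 (Benjamini-Hochberg, over the 29411 genes tested). The procedure was tested on simulated data. Log2 CPM used a prior count of 2 and log2 TPM a pseudocount of 0.1. Transcripts were fitted in the same way, matched without version to GENCODE vM21 for names and codons. Promoter sequences are RefSeq's. The precision of a level is set by counts of 148.2 to 304.6 M (mega) per library.

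The 10 genes and all lists were chosen with earlier results of these data known, and the 5 motifs, the Pparg and Lipe transcripts and the joint removal of jejunal library 2 and inguinal library 1 after their values were seen. Named are the 10 genes, up to 3 called genes and the most abundant gene of each list, partly given here, the 10 nearest to Adipoq, and the exceptions stated. Correlations were planned with permutation p-values adjusted over the members and are given without them. In all, 31 settings of the gene fit were run: this one, 20 that leave out 1 library, DESeq2 1.42.0, limma-voom (limma 3.58.1), robust edgeR, DESeq2-type size factors, no filter, a replicate block, counts summed from transcripts, only the groups compared, and removal of 2 pairs of libraries, and 7 of the transcript fit.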

Additional observations from a re-analysis of the deposited data

Results flagged for a closer look

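A library was marked where its distance from the nearest other library of its position exceeded, as a share of the group's range, Dixon's 95% critical value for 4 samples. Chance alone marks about 1 in 20 groups, and in a library the genes are not independent of each other. The 10 adipocyte genes gave 50 groups of 4 libraries, and 11 were marked.

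Of these, 10 concern jejunal library 2, which stood far above the other 3 jejunal libraries for every one of the 10 genes: Adipoq at 163 CPM (others 43.3 to 48.5), Plin1 at 172 (58.5 to 62.6), Lep at 35.9 (7.53 to 11.8), Cidec at 186 (53.1 to 56.2) and Fabp4 at 568 (138 to 208.4). Pparg stood at 24.3 CPM (10.7 to 12.1), Retn at 71.6 (18.3 to 24.8), Lipe at 200.6 (112 to 124), Pnpla2 at 272 (139 to 154) and Car3 at 887 (234 to 276). The remaining one is Fabp4 at 334 CPM in inguinal library 1, beside 51.5 to 89.3 CPM in the other inguinal libraries.

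Genes near Adipoq or named from the lists, with a highest value of at least 1 CPM (a minimum set after seeing the data), gave the others. Those near Adipoq were picked by r with Adipoq, itself highest in jejunal library 2, so their marks there are no separate evidence. In jejunal library 2 these were Cfd at 742 CPM, Cdo1 at 74.8, Rbp4 at 19.7, Pcx at 142, Klhdc7a at 19.7, Scd1 at 1474, Plin4 at 222, Gpd1 at 152, Glb1l2 at 30.5, Lgals12 at 27.5 and Agpat2 at 69.5 CPM. In inguinal library 1 they were Gpd1 at 96.8 CPM, Agpat2 at 39.1, Ucp1 at 2.50 and Cox8b at 2.89 CPM. Mest stood low in duodenal library 1 at 5.77 CPM (others 7.73 to 8.06), and Msln low in inguinal library 4 at 0.569 CPM (others 1.35 to 1.44).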

How the results depend on the processing

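The number of the 10 adipocyte genes called was stable for the joint tests and not for the pairs. The share of all genes called in each setting is not given beside these counts. Leaving out each library in turn gave 9 to 10 calls among the 5 positions, 7 to 10 among the 4 gut positions, 1 to 7 for gut against inguinal nodes and 17 to 50 summed over the 10 pairs, where the reported counts were 10, 9, 1 and 35. The sum over the pairs was 17 without ceco-colonic library 4, 19 without ileal library 1, 20 without ileal library 4, 21 without ceco-colonic library 2, 22 without ileal library 2 and 50 without inguinal library 1. Robust edgeR gave 17 over the pairs, of them 4 each for ileal and jejunal against ceco-colonic nodes and 2 for duodenal against ileal nodes. For gut against inguinal nodes limma-voom gave 2, removal of duodenal libraries 1 and 2 gave 2, and removal of jejunal library 2 with inguinal library 1, chosen after seeing the data, gave 7. The cause was not tested. DESeq2 gave 42 and limma-voom 43 over the pairs, and the other settings 28 to 45.

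The median r of the 9 genes with Adipoq, 0.956, was 0.947 to 0.967 without single libraries and 0.956 to 0.960 under the other alternatives. Small differences for gut against inguinal nodes turned negative, none of them past the threshold: Lep at -0.0898 and -0.04 without inguinal libraries 2 and 3, Fabp4 at -0.00036 without ceco-colonic library 1, -0.08 without jejunal library 2, and -0.18, -0.18 and -0.06 without inguinal libraries 2, 3 and 4, and Pnpla2 at -0.00028 without jejunal library 2 and -0.0130 without inguinal library 3, on the log2 scale. Over single removals Lep ran from -0.0898 to 1.504, Fabp4 from -0.183 to 1.12 and Pnpla2 from -0.0130 to 0.252, each highest without inguinal library 1.

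The labels do not say whether the replicate numbers pair the libraries, and the data leave it unsettled. Of 40 same-numbered pairs, 13 had a correlation of deviations above 0.1 (-0.087 to 0.359, median 0.079, beside -0.021 for other pairs), and 13 of the 20 libraries correlated best with a library of their own number, a hint of pairing from the data. With the replicate number as a block, 9 genes were called among the 5 positions, 9 among the 4 gut positions, 1 for gut against inguinal nodes and 30 over the pairs. Over all genes the block moved the calls from 10487 to 11891 among the 5 positions, from 831 to 1597 for duodenal against jejunal nodes and from 20 to 38 for jejunal against ileal nodes.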
